A study of Mus musculus with 11 samples.

Results

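Olfactory receptor genes (symbols beginning with Olfr) encode the G protein-coupled receptors that bind odorants, and were followed here through 11 ChIP-Seq libraries from mouse embryonic stem (ES) cells and embryonic fibroblasts (MEFs). Members were taken by symbol from the protein-coding genes of chromosomes 1 to 19 in the GENCODE annotation of mm9, which gave 1106 Olfr genes of 21418 genes, and 7 more on chromosome X were not included. Genes that lay under 200 kb apart were joined, and the 23 runs with 10 or more genes are called clusters. The clusters hold 976 of the 1106 genes in 24.9 Mb, and 130 genes lie outside them. The study asked where the histone variant MacroH2A2 is deposited and how fast it is replaced, after a check of its system with the variant H3.3. Its inducible cells derive from the KH2 ES line, which carries the M2rtTA transactivator at ROSA26 and a tetO-driven, HA-tagged cassette at Col1a1, on a 129 X C57bl/6 background. HA-H3.3 ES cells received Dox (2 μg/ml) for 3 or 6 hours, HA-Macro ES cells received no Dox or Dox for 3, 6 or 12 hours, and HA-Macro MEFs received Dox for 3, 6 or 12 hours, each followed by ChIP with an anti-HA antibody. HA-Macro MEFs came from chimeric embryos made with the ES line, were selected with puromycin and were induced at passage 2. ES cells were grown on feeder MEFs, which were depleted by preplating before induction. An antibody to MacroH2A2 itself was used in ES cells and in MEFs. The labels name untreated parental KH2 ES cells and wild type MEFs for these libraries, whereas the study's figure legends place its anti-MacroH2A2 maps in HA-Macro cells without or with Dox. The line and the Dox state of these libraries are therefore unsettled, and only antibody and cell type are used.

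Each olfactory sensory neuron expresses a single receptor gene from 1 allele and keeps the rest silent, and neither ES cells nor fibroblasts are olfactory neurons. The genes arose by repeated duplication, have few introns in their coding part, and stand in long arrays with few other genes between them. MacroH2A2 is an H2A variant with a large globular macro domain that is often found on silent chromatin, whereas H3.3 is deposited throughout the cell cycle and is known for its place at active promoters. In olfactory neurons, receptor choice is known to depend on enhancers and promoters with sites for LHX2 (a homeodomain factor) and EBF (O/E) factors.

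The 250 bases before the annotated transcription start site (TSS) are printed for 4 genes, 2 with the most reads at their promoter and 2 widely studied receptors at which HA-H3.3 at 6 hours gave none. Sequences are from mm9, are written 5′ to 3′ on the strand of the gene, and have their CpG dinucleotides in capitals. They cover chr17:37334957-37335206 (minus strand) for Olfr94, which had the most HA-H3.3 midpoints at 6 hours, chr7:6392297-6392546 (plus strand) for Olfr1344, which had the most anti-MacroH2A2 midpoints in MEFs, chr7:114146120-114146369 (minus strand) for Olfr2, and chr7:112486229-112486478 (minus strand) for Olfr691.
Olfr94: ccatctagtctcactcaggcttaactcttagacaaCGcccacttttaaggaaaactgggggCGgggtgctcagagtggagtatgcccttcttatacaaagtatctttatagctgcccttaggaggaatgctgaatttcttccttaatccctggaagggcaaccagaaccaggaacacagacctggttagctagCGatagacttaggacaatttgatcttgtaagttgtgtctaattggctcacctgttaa
Olfr1344: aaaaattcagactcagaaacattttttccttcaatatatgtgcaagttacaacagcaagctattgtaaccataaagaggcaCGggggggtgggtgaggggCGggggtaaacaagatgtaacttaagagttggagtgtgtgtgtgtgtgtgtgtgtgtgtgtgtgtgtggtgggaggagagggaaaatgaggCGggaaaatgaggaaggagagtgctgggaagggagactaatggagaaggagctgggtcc
Olfr2: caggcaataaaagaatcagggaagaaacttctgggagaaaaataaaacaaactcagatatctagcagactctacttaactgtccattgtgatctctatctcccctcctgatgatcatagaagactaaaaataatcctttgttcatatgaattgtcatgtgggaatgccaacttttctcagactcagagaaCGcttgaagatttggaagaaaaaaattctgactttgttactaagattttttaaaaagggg
Olfr691: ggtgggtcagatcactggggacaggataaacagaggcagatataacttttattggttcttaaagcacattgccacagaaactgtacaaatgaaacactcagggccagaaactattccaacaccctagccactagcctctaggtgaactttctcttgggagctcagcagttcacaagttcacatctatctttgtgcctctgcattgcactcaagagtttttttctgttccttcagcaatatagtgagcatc
The sequences of Olfr94 and Olfr1344 hold 3 CpGs each, that of Olfr2 holds 1 and that of Olfr691 holds 0. In this window, 503 of 1106 Olfr genes (45.5%) held no CpG, against 7.43% of all 21418 protein-coding genes. The homeodomain core TAATTA, which reads the same on both strands, occurred before 202 Olfr genes (18.3%), against 4.60% of all genes. A motif of the EBF type went the other way, and occurred before only 5 Olfr genes (0.452%), against 0.808% of all genes. TATAAA on either strand occurred before 422 (38.2%), against 12.4%, and of the printed sequences only that of Olfr94 holds it. Matches of these motifs can share letters, and they were taken as letters only. TAATTA and TATAAA hold only A and T and the EBF motif holds mostly G and C. Olfr promoters, as defined below, have a median GC content of 38.9%, against 54.1% for all protein-coding genes. The part of base composition in these shares was not tested, and the EBF share of Olfr genes rests on 5 genes. Of the 1106 Olfr genes, 609 have an annotated TSS at the first base of the start codon and only 139 have one 100 bp or more upstream of it, so that for most members the downstream side of a window around the TSS lies largely in the coding exon. The printed bases end just before the TSS, which for Olfr2 lies 747 bp upstream of the start codon. Promoters, taken as 600 bp upstream and downstream from the TSS, held a median of 6 CpGs for Olfr genes and 47 for all protein-coding genes, with a median GC content of 38.9% against 54.1%.

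Each condition is represented by 1 library, and the labels say that 2 replicates were merged in each of those for anti-MacroH2A2. Differences therefore have no replicate check, and the 95% intervals given cover counting error only. After repeated intervals were counted 1 time, the libraries held 6448310 (HA-H3.3 at 3 hours) to 19869559 intervals (HA-Macro MEFs at 12 hours). Interval midpoints were counted and divided by the library total (p.p.m.). The 4 HA-H3.3 and anti-MacroH2A2 files have intervals of 400 bp, of which 0.462% to 0.693% are repeats, and the 7 others have intervals of 150 bp with 3.27% to 6.00% repeats. Between these 2 sets of libraries, antibody target and processing cannot be told apart, except that the HA-Macro ES library without Dox shares its processing with the induced ones. The HA-Macro ES library at 3 hours differs from those at 6 and 12 hours in its share of chromosome Y (0.112% against 0.0219% and 0.0228%), so ratios that use it are also given with another time point. Shares of chromosome Y also differed between the anti-MacroH2A2 libraries (0.1002% in ES cells and 0.0423% in MEFs) and between the HA-H3.3 libraries (0.102% at 3 hours and 0.0673% at 6 hours), for which no other library can take their place. The part of these differences in the results was not tested. The authors placed reads with several matches at 1 location at random, and values of Olfr genes with near-identical copies are uncertain for that reason.

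Olfr clusters held fewer reads than the genome average wherever a tagged or native histone variant was precipitated, and not in the library without Dox. HA-H3.3 gave 289 p.p.m. per Mb over the 23 clusters at 3 hours and 221 at 6 hours, where the mean of chromosomes 1 to 19 was 394 and 395. Anti-MacroH2A2 gave 297 in ES cells and 265 in MEFs, against means of 394 and 388. The clusters held 401 p.p.m. per Mb in the HA-Macro ES library without Dox and 299, 312 and 307 after 3, 6 and 12 hours, against means of 389 to 392. In HA-Macro MEFs they held 245, 241 and 227 at 3, 6 and 12 hours, against a mean of 392 in each. The library without Dox thus stood at a log2 ratio of 0.04 to its mean, while the other 10 libraries stood between −0.33 (HA-Macro ES, 6 hours) and −0.84 (HA-H3.3, 6 hours). All 23 clusters lay below the mean in 7 libraries, 22 did in HA-Macro ES cells at 6 and at 12 hours, 21 did for anti-MacroH2A2 in ES cells and 8 did without Dox. Among all 23718 tiles of 100 kb on chromosomes 1 to 19, 46.8% (no Dox) to 65.9% (HA-H3.3 at 6 hours) lay below the mean. The counting interval of each sum is narrow, for example 220 to 223 p.p.m. per Mb for HA-H3.3 at 6 hours, and the clusters differed among themselves by far more.

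**Figure D1:**
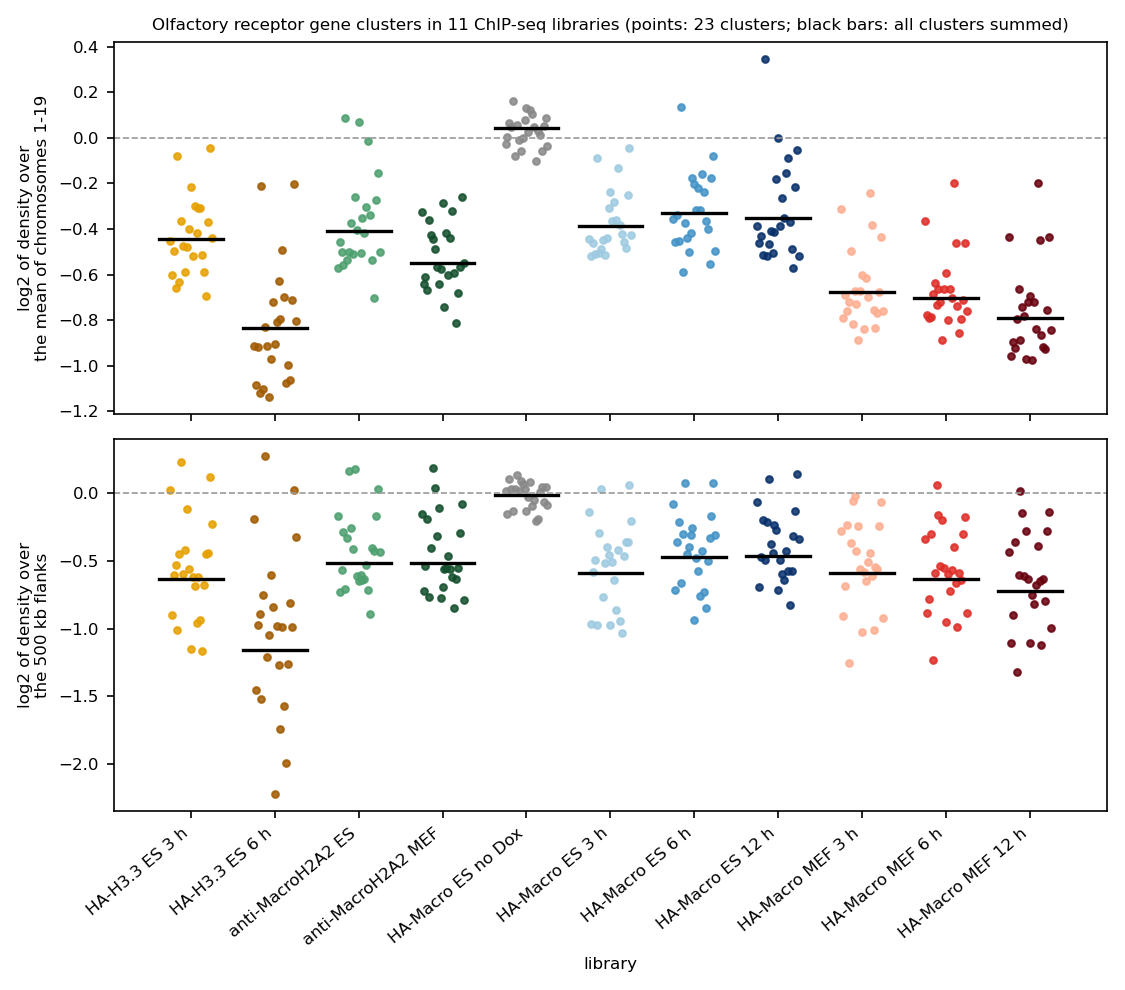
Log2 ratio of read density in the 23 Olfr clusters to the mean of chromosomes 1 to 19 (upper panel) and to the 500 kb flanks (lower panel). Each of the 11 libraries has 1 point per cluster and a black bar for the sum over clusters. The dashed line marks equal density. In the upper panel the points lie on both sides of this line without Dox, and 21 to 23 of 23 lie below it in each of the other libraries. The lowest sums there are those of HA-H3.3 at 6 hours and HA-Macro MEFs.

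Against the 500 kb on either side of each cluster the deficit had the same direction. Summed over clusters, the density was 0.644 times that of the flanks for HA-H3.3 at 3 hours (log2 −0.64) and 0.448 times at 6 hours (log2 −1.16, 95% interval −1.17 to −1.15). It was 0.699 times the flanks for anti-MacroH2A2 in ES cells and 0.700 times in MEFs (log2 −0.52 and −0.51). HA-Macro ES cells gave 0.663, 0.723 and 0.724 times at 3, 6 and 12 hours, HA-Macro MEFs gave 0.663, 0.643 and 0.606 times, and the library without Dox gave 0.991 times (log2 −0.01). Between 20 and 23 of the 23 clusters lay below their flanks in the 10 other libraries, and 10 did without Dox. The flanks hold more genes than the clusters hold non-Olfr genes, and 50 kb just outside the edges carried 48 other protein-coding TSSs (20.9 per Mb) where the 50 kb just inside carried 10 (4.35 per Mb).

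Density fell toward the edge and across it. In HA-H3.3 ES cells at 6 hours it went from 464 p.p.m. per Mb between 100 and 50 kb outside to 384 in the last 50 kb outside and 225 in the first 50 kb inside, and stayed between 216 and 231 over the next 200 kb. HA-Macro ES cells at 3 hours also had most of the fall at the edge, with 416, 405 and 312 in these 3 bins. At 3 hours HA-H3.3 gave 426, 373 and 312. The fall was spread more evenly in HA-Macro ES cells at 6 hours (418, 381 and 336) and in HA-Macro MEFs at 3 hours (349, 317 and 275). In the other 5 induced or native libraries the step at the edge, in p.p.m. per Mb, was smaller than that between the bins outside it. As log2 ratios to the mean this did not hold for HA-Macro MEFs at 6 hours (−0.134, −0.330 and −0.542) and 12 hours (−0.135, −0.340 and −0.552). HA-Macro MEFs gave 357, 312 and 269 at 6 hours and 357, 310.1 and 268 at 12 hours. Anti-MacroH2A2 gave 411, 358 and 325 in ES cells and 365, 313 and 295 in MEFs, and HA-Macro ES cells at 12 hours gave 420.2, 383 and 351. The library without Dox gave 398.6, 395.5 and 406 and had no such fall. The part of the gene difference in these profiles was not tested.

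**Figure D2:**
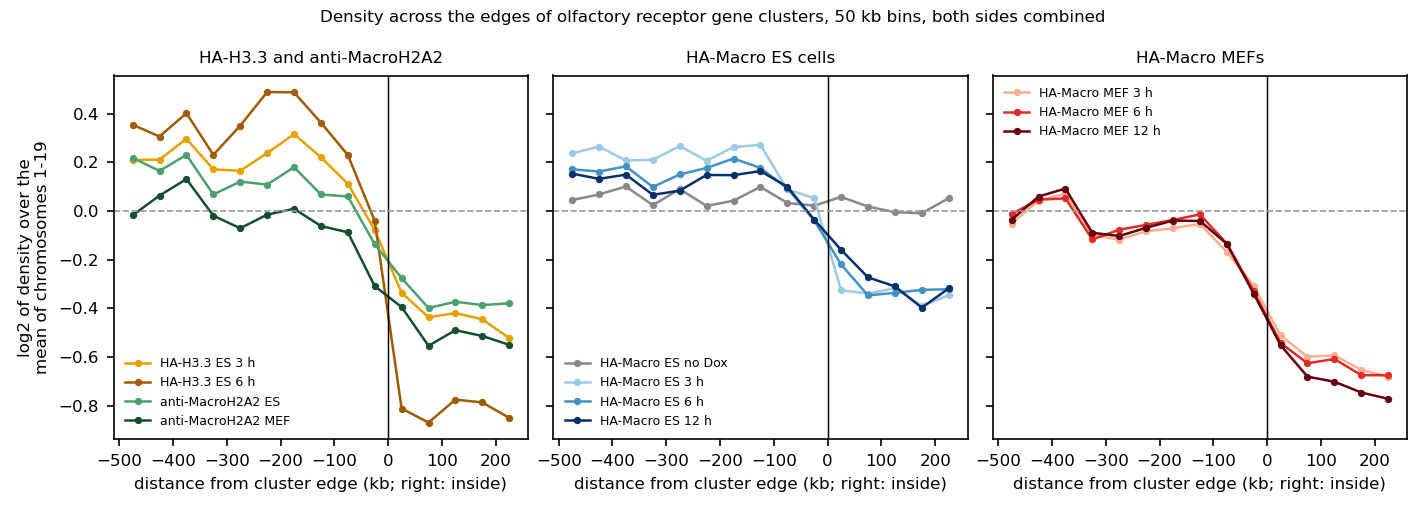
Log2 ratio of read density to the mean of chromosomes 1 to 19 across the edges of the 23 Olfr clusters, for each library. Bins of 50 kb run from 500 kb outside to 250 kb inside, with both edges combined. Lines fall toward and across the edge in every library except the one without Dox. HA-H3.3 at 6 hours falls from −0.04 to −0.81 at the edge.

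Because Olfr clusters are poor in GC and in other genes, 100 kb tiles were also compared with tiles that carry no protein-coding TSS. The 249 tiles that lay mostly in a cluster had a median GC content of 38.4%, against 39.8% in 13462 tiles without a protein-coding TSS and 41.4% in all tiles. The median cluster tile held 69.9% of the median gene-less tile for anti-MacroH2A2 in MEFs and 69.5%, 68.2% and 63.8% in HA-Macro MEFs at 3, 6 and 12 hours. In ES cells it held 86.9% for anti-MacroH2A2, 99.0%, 95.1% and 93.2% for HA-Macro at 3, 6 and 12 hours, and 89.3% and 86.7% for HA-H3.3 at 3 and 6 hours. Without Dox it held 104.7%. Cluster tiles of MEF libraries therefore stood further below gene-less tiles than those of ES libraries with the same antibody, although each cell type was compared with its own gene-less tiles.

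Tiles with very few reads showed the same order. For anti-MacroH2A2 in MEFs, 129 of 249 cluster tiles (51.8%) lay below the 10th percentile of all tiles, where 9.88% of all tiles do. In HA-Macro MEFs 132, 157 and 159 tiles (53.0%, 63.1% and 63.9%) lay below it, against 9.69%, 9.83% and 9.98% of all. In ES cells the counts were 63 for anti-MacroH2A2 (25.3%, against 9.91%), 28, 26 and 34 for HA-Macro (11.2%, 10.4% and 13.7%, against 9.70%, 9.74% and 9.87%), and 47 and 63 for HA-H3.3 (18.9% and 25.3%, against 9.71% and 9.76%). Without Dox 9 tiles (3.61%) lay there, against 9.97% of all. The share of Olfr tiles in HA-Macro ES cells was thus close to the background, and in MEFs it was several times the background.

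**Figure D3:**
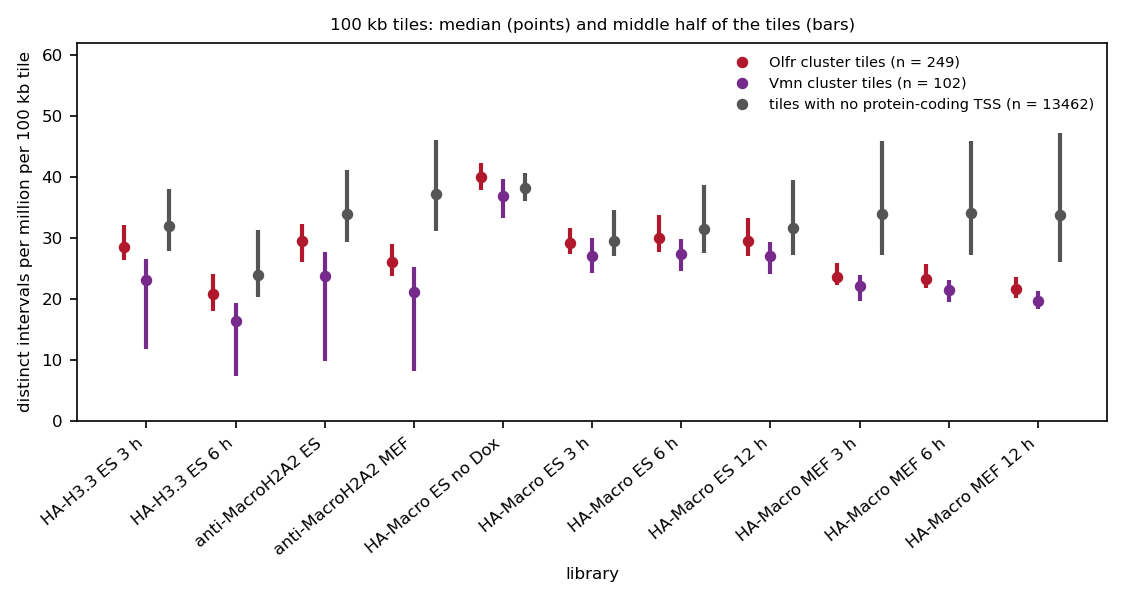
Level of 100 kb tiles (p.p.m.) in each library for Olfr cluster tiles, Vmn cluster tiles and tiles without a protein-coding TSS. Points are medians and bars are interquartile ranges. The median Olfr tile lies within the interquartile range of gene-less tiles in ES cells and below it in MEFs.

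The difference between the cell types was also present between tiles of like GC content. Olfr tiles were set against gene-less tiles in the bands that start at 34%, 36%, 38%, 40% and 42% GC and are 2 points wide, which hold 13, 91, 103, 27 and 12 Olfr tiles. For anti-MacroH2A2 in MEFs the median Olfr tile held 86.8%, 79.0%, 73.5%, 65.2% and 80.0% of the median gene-less tile of the band, where ES cells gave 101%, 97.6%, 93.3%, 87.5% and 105%. HA-Macro MEFs at 12 hours gave 81.5%, 74.4%, 69.6%, 63.1% and 69.0%, and HA-Macro ES cells at 12 hours 108%, 105%, 98.6%, 98.5% and 107%. HA-H3.3 at 6 hours gave 98.4%, 98.2%, 93.5%, 77.0% and 97.8%. In each of the 5 bands the percentage was lower in the MEF library than in the ES library with the same antibody. The gene-less tiles were those of the same library, and a difference in these tiles between cell types was not separated out.

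Compared directly, Olfr clusters held a smaller share of MacroH2A2 reads in MEFs than in ES cells with either antibody. Of these comparisons, HA-Macro at 12 hours departed most from the flanks. The study reports higher MacroH2A2 levels in MEFs, and treats part of the apparent promoter loss there as an effect of normalization. A smaller share of reads in MEFs need therefore not be a loss of molecules, and the 2 cannot be told apart here. For anti-MacroH2A2, the log2 ratio of MEFs to ES cells was −0.16 over clusters (95% interval −0.18 to −0.15) and −0.17 over flanks, with 19 clusters below 0 and 4 above. At 12 hours of Dox, HA-Macro gave −0.44 over clusters (−0.45 to −0.43) and −0.18 over flanks, with all 23 clusters below 0 and 21 of them with a counting interval below 0. At 3 hours it gave −0.29 over both clusters and flanks, with 20 clusters below 0. Over the 3 times that HA-Macro ES cells and MEFs share, the log2 ratio over clusters was −0.37 ± 0.08 (SD, n = 3 times), lower in MEFs at 3 of 3, and the two-sided exact paired permutation test gave p = 0.25, which is the smallest that 3 pairs allow. Times of 1 series are not replicates, and this test was chosen after seeing the data. Among tiles, 206 of 249 (82.7%) were lower in MEFs with anti-MacroH2A2, where 49.3% of all tiles were, 4 (1.61%) were at least 1.5-fold lower, where 4.03% of all were, and 0 were 1.5-fold higher (background 3.38%). For HA-Macro at 12 hours, 241 tiles (96.8%, background 56.2%) were lower in MEFs and 55 (22.1%, background 9.72%) at least 1.5-fold lower, and at 3 hours 229 (92.0%, background 48.3%) and 21 (8.43%, background 16.4%). At each time 1 tile (0.402%) was at least 1.5-fold higher in MEFs, against 11.4% of all tiles at 12 hours and 18.4% at 3 hours. Tiles at least 1.5-fold lower were thus less frequent than over all tiles in 2 of these 3 comparisons, although lower tiles as such were more frequent in all 3. Whether the shares differ was not tested.

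HA-H3.3 fell in every Olfr cluster from 3 to 6 hours while it rose in the flanks. The log2 ratio of 6 to 3 hours was −0.38 over clusters (95% interval −0.40 to −0.37) and 0.14 over flanks. It lay below 0 in 23 of 23 clusters, from −0.68 to −0.13, and in 22 of them the counting interval did not reach 0. Among tiles, 236 of 249 (94.8%, background 69.3%) fell and 55 (22.1%, background 11.4%) fell by at least 1.5-fold, and 0 rose by that much (background 4.05%). Values in p.p.m. are shares of a library, so a gain at other places lowers the clusters without a loss of molecules there, and the 2 cannot be told apart.

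Olfr clusters held a smaller share of HA-Macro ES reads with Dox than without, and changed little between 3 and 12 hours. The study describes its map without Dox as a mostly flat background with traces at promoters. Relative to the library without Dox, the log2 ratio was −0.42 at 3 hours, with 23 clusters below 0, and −0.39 at 12 hours (95% interval −0.40 to −0.37), with 21 below 0, while the flanks gave 0.16 and 0.07. These comparisons share the library without Dox. Among tiles, 238 of 249 (95.6%, background 65.1%) lay below 0 at 3 hours, 37 of them (14.9%, background 5.68%) at least 1.5-fold, and 1 (0.402%) was 1.5-fold higher (background 8.96%). At 12 hours 234 (94.0%, background 57.7%) lay below 0, 51 (20.5%, background 7.90%) at least 1.5-fold, and 0 were 1.5-fold higher (background 6.01%). From 3 to 12 hours the clusters gave 0.04 (0.03 to 0.05) and the flanks −0.09, with 8 clusters below 0 and 15 above, and among tiles 110 lay below 0 (44.2%, background 40.9%) and 0 changed by 1.5-fold in either direction (3.10% of all tiles rose and 6.62% fell by that much). Counted from 6 hours in place of 3, the clusters gave −0.02 and the flanks −0.03, with 15 clusters and 143 tiles below 0 (57.4%, background 49.6%), so the direction of this small change depends on the 3 hour library.

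In HA-Macro MEFs the clusters moved slowly downward. From 3 to 12 hours the log2 ratio was −0.11 over clusters (95% interval −0.13 to −0.10) and 0.02 over flanks, and 21 of 23 clusters lay below 0, 14 of them with their counting interval. The step from 3 to 6 hours was −0.03 and that from 6 to 12 hours −0.09. Among tiles, 199 of 249 (79.9%, background 50.7%) fell from 3 to 12 hours, and 0 changed by 1.5-fold in either direction, as was also the case for 0 of all 23718 tiles.

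**Figure D4:**
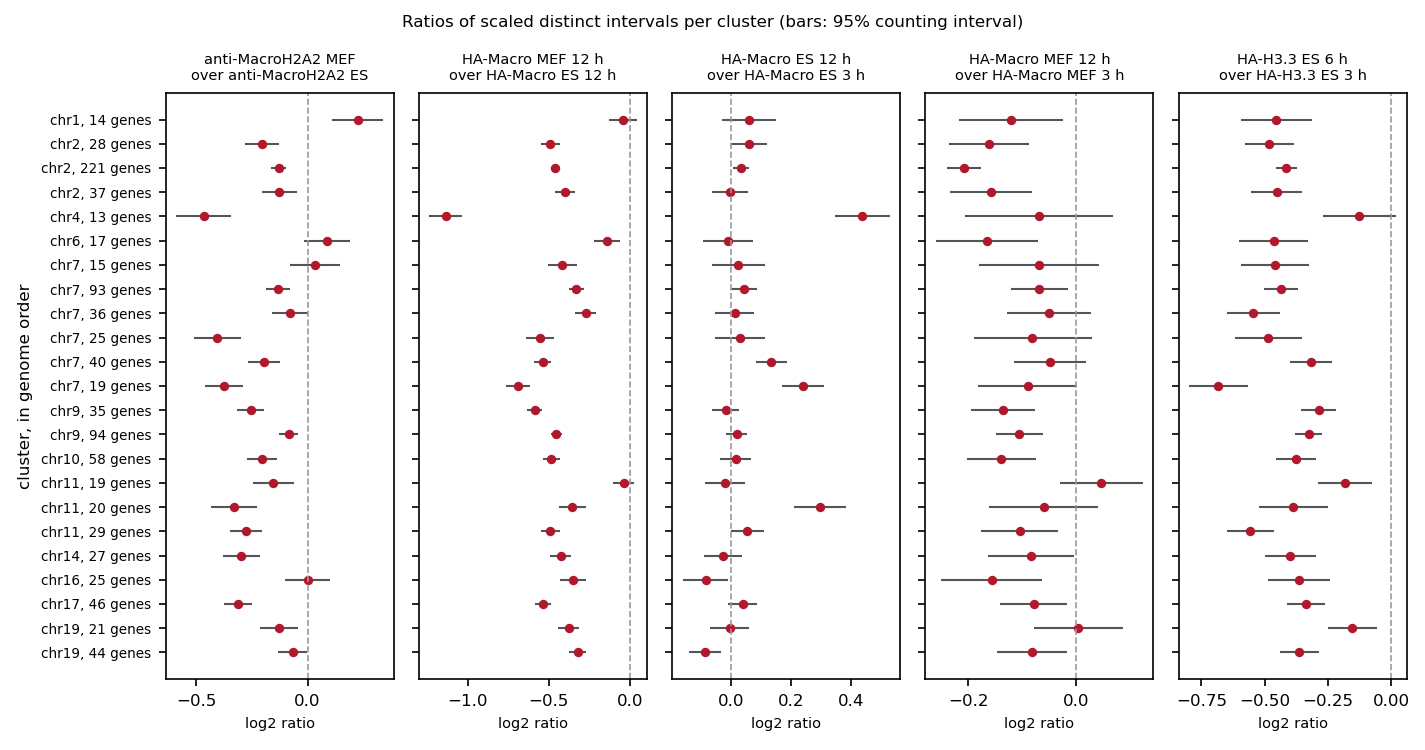
Log2 ratio between pairs of libraries for each of the 23 Olfr clusters, with their counting intervals and a line at 0. For HA-H3.3 (6 against 3 hours) every cluster lies below 0, whereas for HA-Macro ES cells (12 against 3 hours) clusters lie on both sides of 0.

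Between anti-MacroH2A2 and HA-Macro at 12 hours, densities of the 23 clusters ranked more alike where cell type was shared. Spearman's rho was 0.84 between anti-MacroH2A2 and HA-Macro at 12 hours in ES cells (Pearson's r 0.89) and 0.85 between the same antibodies in MEFs (r 0.70), against 0.50 between the anti-MacroH2A2 libraries of the 2 cell types (r 0.63) and 0.35 between anti-MacroH2A2 in ES cells and HA-Macro MEFs at 12 hours (r 0.33). The points share the GC content of their sequence, which ran with anti-MacroH2A2 density in ES cells (rho 0.63, r 0.84) and not with the library without Dox (rho −0.04, r 0.09). For HA-H3.3 in ES cells, cell type made less difference. At 3 hours its rho was 0.78 to anti-MacroH2A2 in ES cells and 0.75 to that in MEFs, and at 6 hours 0.64 and 0.53. These are descriptions over clusters within single libraries.

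The largest cluster, on chromosome 2 (chr2:85171054-90122730), holds 221 genes from Olfr987 to Olfr1272 in 4.95 Mb. It held 279 and 209 p.p.m. per Mb for HA-H3.3 at 3 and 6 hours and 278 and 254 for anti-MacroH2A2 in ES cells and MEFs. HA-Macro ES cells gave 408 without Dox and 284, 309.7 and 290.4 at 3, 6 and 12 hours, and in HA-Macro MEFs 243, 227 and 211. Every library but the one without Dox was below its mean, and MacroH2A2 libraries from MEFs were lower than those from ES cells with the same antibody. The cluster of 94 genes on chromosome 9 (chr9:37518857-39995679, Olfr151 to Olfr986) had a similar order, with 320.0 and 255 for HA-H3.3, 308 and 291 for anti-MacroH2A2 in ES cells and MEFs, 424 without Dox, 321, 336 and 326 in HA-Macro ES cells and 256, 248 and 238 in HA-Macro MEFs.

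The 93 genes from Olfr543 to Olfr649 on chromosome 7 (chr7:109625287-111344474) surround the β-globin locus, whose genes encode the adult and embryonic hemoglobin chains. This cluster held 284 and 209.6 p.p.m. per Mb for HA-H3.3 at 3 and 6 hours, 304 and 277 for anti-MacroH2A2 in ES cells and MEFs, and 387 without Dox. HA-Macro gave 287, 288 and 295 in ES cells and 246, 247 and 235 in MEFs. It lay below its flanks for HA-H3.3 at 6 hours (log2 −1.21) and for anti-MacroH2A2 in ES cells (−0.26), but level with them in MEFs, where anti-MacroH2A2 gave 0.03 and HA-Macro at 3 hours −0.02. In MEFs its flanks were thus about as low as the cluster. At the β-globin promoters the midpoints were few, with 2 and 5 for HA-H3.3 at 3 and 6 hours at Hbb-b1 and 3 and 4 at Hbb-b2.

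A few small clusters departed from the rest. The 13 genes from Olfr62 to Olfr1328 on chromosome 4 (chr4:118338124-118607445) form the cluster with the highest anti-MacroH2A2 density in ES cells (418 p.p.m. per Mb) and had 302 in MEFs, a log2 ratio of −0.47. HA-Macro rose there from 367 at 3 hours to 431 at 6 hours and 497 at 12 hours in ES cells, against 436 without Dox, and stood at 238, 244 and 226 in MEFs. The log2 ratio of 12 to 3 hours in ES cells was 0.44 (95% interval 0.35 to 0.53), that of 12 to 6 hours 0.21 (0.12 to 0.30), and that of MEFs to ES cells at 12 hours −1.14. Its GC content of 42.9% is high among Olfr clusters, and HA-H3.3 gave 373 and 341 at 3 and 6 hours. This was 1 of 2 clusters in which HA-Macro at 12 hours was above the library without Dox in ES cells.

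The 14 genes on chromosome 1 (chr1:175972064-176379733, Olfr433 to Olfr220) were the cluster with the highest ratio of MEFs to ES cells for anti-MacroH2A2, with 265 p.p.m. per Mb in ES cells and 309.5 in MEFs, a log2 ratio of 0.23 (95% interval 0.11 to 0.34). HA-Macro gave the same direction at 3 hours (0.14) and not at 12 hours (−0.04). The 15 genes from Olfr310 to Olfr292 on chromosome 7 (chr7:93417240-93843894) were the cluster with the highest HA-H3.3 at 6 hours against its flanks (log2 0.27), and stood between −0.06 and 0.27 in all 11 libraries. Those flanks carry only 8 protein-coding TSSs. At the other end, the 19 genes from Olfr522 to Olfr541 on chromosome 7 (chr7:147347838-147891166) stood at −2.22 against flanks with 44 TSSs, and fell from 339 to 211 p.p.m. per Mb between 3 and 6 hours of HA-H3.3. On chromosome 19 (chr19:12748669-13994534) 44 genes formed the cluster with the lowest ratio of 12 to 3 hours in HA-Macro ES cells, at −0.09, and gave −0.02 (95% interval −0.07 to 0.03) from 6 hours.

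Within clusters, reads were not spread evenly. Olfr promoters make up 4.67% of cluster bases, the rest of Olfr gene bodies 4.37%, other protein-coding genes 2.68% and the remaining bases 88.3%. Relative to the remaining bases, Olfr promoters stood at log2 0.38 and 0.30 for HA-H3.3 at 3 and 6 hours, 0.49 and 0.56 for anti-MacroH2A2 in ES cells and MEFs, and 0.21 without Dox. For HA-Macro they stood at 0.16, 0.24 and 0.34 in ES cells and 0.13, 0.18 and 0.20 in MEFs at 3, 6 and 12 hours. The rest of the gene bodies stood at 0.13, 0.17 and 0.27 in ES cells and 0.19, 0.25 and 0.35 in MEFs, against 0.10 without Dox. From 3 to 12 hours this was less of a rise than at the promoters in ES cells and more of one in MEFs. Counted from 6 hours, gene bodies and promoters rose about equally in ES cells, and gene bodies rose more in MEFs. The other protein-coding genes in the clusters held more HA-H3.3, with 0.65 and 0.97 at 3 and 6 hours, and 0.03 without Dox. For anti-MacroH2A2 they stood at 0.54 in ES cells and 0.37 in MEFs. HA-Macro gave 0.55, 0.25 and 0.21 there in ES cells and 0.17, 0.27 and 0.30 in MEFs.

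Those other genes include housekeeping genes that stand out as narrow places of HA-H3.3. The promoter of Mgat1, which encodes the first branching enzyme of N-glycans, held 23 and 79 HA-H3.3 midpoints at 3 and 6 hours, and 9 and 2 anti-MacroH2A2 midpoints in ES cells and MEFs. Patl1, an mRNA decay factor, held 27 and 48 HA-H3.3 midpoints, Osbp, an oxysterol-binding protein, 19 and 40, and the zinc finger gene Zfp62 12 and 61. These 4 were chosen after their values were seen. The median Olfr promoter held 3 midpoints at each of the 2 times.

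In HA-Macro ES cells the density of the coding exon rose from 3 to 12 hours of Dox. Gene-free windows of like GC in the clusters also rose, by less, as given below. Of the Olfr genes, 1033 have a single coding block of 500 bp or more, with a median length of 939 bp and a median GC content of 43.9%, against 34.7% in the kilobase on each side that starts 200 bp away. The exon density in HA-Macro ES cells was 364, 439 and 506 p.p.m. per Mb at 3, 6 and 12 hours, a log2 ratio to the neighboring windows of 0.23, 0.48 and 0.75. In HA-Macro MEFs it was 323, 338 and 340.4, a ratio of 0.41, 0.55 and 0.63. Without Dox the exons held 455 p.p.m. per Mb, a ratio of −0.05. HA-H3.3 gave 373 and 264 at 3 and 6 hours, with ratios of 0.04 and −0.02 whose counting intervals include 0, and anti-MacroH2A2 gave 436 and 402 in ES cells and MEFs, with ratios of 0.28 and 0.35. MacroH2A2 libraries were thus denser in the exon than beside it with both antibodies, and the HA-H3.3 libraries and the one without Dox were not. Against the library without Dox, HA-Macro ES cells at 12 hours stood at log2 0.15 in the exons and −0.64 in the neighboring windows. At 3 hours they stood at −0.32 and −0.60. Much of the exon ratio at 12 hours thus lay in lower neighboring windows.

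Single exons hold few midpoints, so they were also counted by direction. In HA-Macro ES cells at 12 hours the exon was denser than its neighboring windows in 835 of 1033 genes (80.8%), where 78.4% of all 2645 genes with a single coding block were, in MEFs at 12 hours in 752 (72.8%, background 75.5%), and without Dox in 473 (45.8%, background 58.1%). Other genes with a single coding block thus showed such an excess about as often, and also without Dox. Their median GC content is 53.9%, and in ES cells their exon ratio was 0.84 at 3 hours and 0.69 at 12 hours. The course over time differed between these sets. From 3 to 12 hours in HA-Macro ES cells, the log2 ratio of Olfr exons was 0.47 (95% interval 0.43 to 0.52) and that of their neighboring windows −0.05, whereas the exons of the 1417 other genes gave −0.33 and those of 195 Vmn genes 0.23. From 6 to 12 hours, without the 3 hour library, Olfr exons gave 0.20 (0.16 to 0.25) and the neighboring windows −0.07, the exons of the other genes −0.11 and those of Vmn genes 0.10. In MEFs from 3 to 12 hours they gave 0.07 (0.01 to 0.13) and −0.14.

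The exon excess of HA-Macro ES cells at 12 hours was positive in 23 of 23 clusters, from 0.30 to 1.17, and in 22 the counting interval did not reach 0. In MEFs at 12 hours it was positive in 23 clusters, 19 of them by interval, and without Dox in 8, 2 of them by interval. Genes outside clusters had ratios of 0.70 in ES cells and 0.81 in MEFs at 12 hours, and 0.27 without Dox. The pattern was therefore not limited to the arrays.

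At matched GC content the exon excess of HA-Macro at 12 hours was smaller. Exons were set against gene-free 1 kb windows of the clusters in 6 bands of 2 GC points from 38% to 50%. At matched GC, HA-Macro ES cells at 12 hours gave log2 ratios of 0.50, 0.46, 0.38, 0.33, 0.17 and 0.33, where the library without Dox gave 0.41, 0.22, 0.24, 0.23, 0.14 and 0.24. HA-Macro MEFs at 12 hours gave 0.21, 0.11, 0.03, 0.00, 0.07 and 0.14. At 3 hours HA-Macro ES cells gave 0.27, 0.28, 0.07, 0.14, −0.14 and 0.00, the first 2 of which are above their ratio of 0.23 to the neighboring bases. Anti-MacroH2A2 gave 0.42, 0.37, 0.34, 0.46, 0.28 and 0.19 in ES cells and 0.55, 0.55, 0.46, 0.62, 0.48 and 0.45 in MEFs. HA-Macro MEFs at 3 hours gave 0.14, −0.25, −0.04, −0.23, −0.15 and 0.13. HA-H3.3, whose exons did not stand above the neighboring bases, gave 0.45, 0.33, 0.27, 0.64, 0.09 and 0.25 at 3 hours, and at 6 hours 0.53, 0.29, 0.17, 0.22, −0.09 and −0.26. At 12 hours the excess of HA-Macro was thus smaller against windows of like GC than against the neighboring bases in each band and in both cell types. That of anti-MacroH2A2 was not smaller in any band in MEFs, and in ES cells it stood at 0.28 or above in all but the band from 48% GC. The windows themselves gained density in HA-Macro ES cells, from 270, 291, 308, 326, 358 and 383 p.p.m. per Mb at 3 hours. They held 288, 312, 332, 341, 374 and 405 at 6 hours and 281, 325, 353, 390, 427 and 476 at 12 hours. Exons of these bands went from 327, 353, 324, 360, 324 and 383 at 3 hours to 397, 446, 458, 490, 480 and 598 at 12 hours. The part of GC content in the exon rise was not tested.

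**Figure D5:**
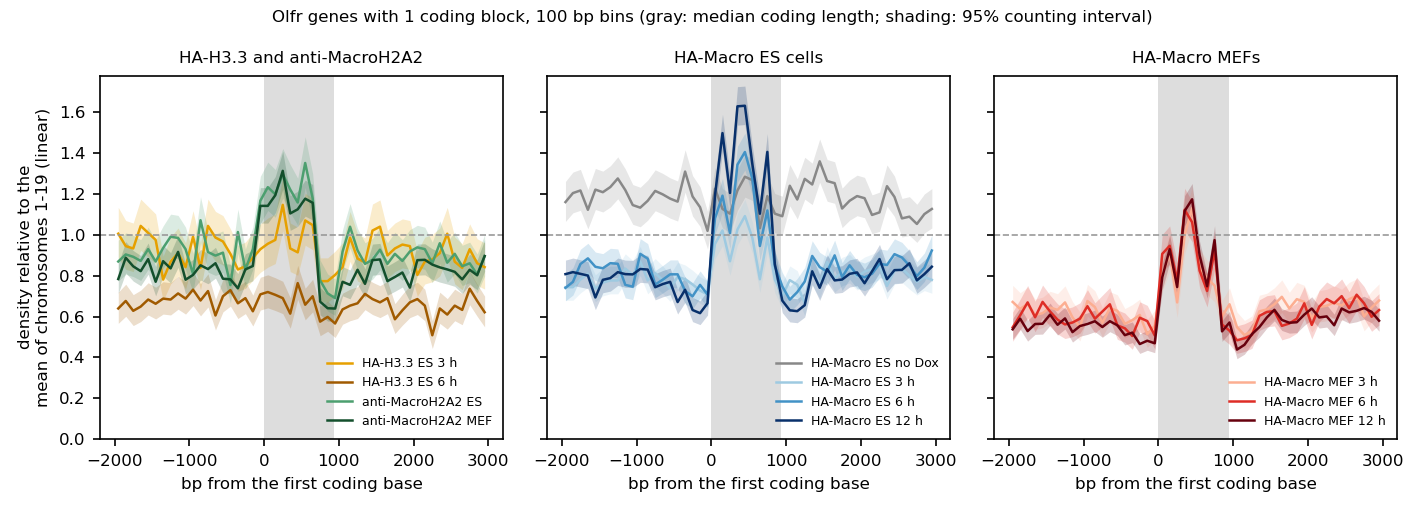
Read density in 100 bp bins along the coding exon of 1033 Olfr genes, relative to the mean of chromosomes 1 to 19 and aligned at the first coding base. In HA-Macro ES cells at 12 hours the line rises from 0.67 just before the first coding base to 1.63 at 350 to 450 bp and returns to 0.68 at 950 bp. Without Dox the exons held 455 p.p.m. per Mb and their neighboring windows 469, both above the mean of 389.

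The profile along the exon carried this in finer steps. In HA-Macro ES cells at 12 hours the density relative to the genome mean was 0.67 in the 100 bp before the first coding base, 1.19 in the first 100 bp of the exon, 1.63 at 350 and 450 bp, 1.10 at 650 bp, 1.41 at 750 bp and 0.68 at 950 bp. GC content took the same shape, with 35.5%, 44.4%, 46.7% (at 450 bp), 43.5%, 46.7% and 35.8% at these places. In HA-Macro MEFs at 12 hours the density was 0.47 before the exon and 1.17 at 450 bp. The anti-MacroH2A2 profiles, from 400 bp intervals, already stood at 1.17 in ES cells and 1.14 in MEFs in the 100 bp before the first coding base, and at 0.78 and 0.67 at 750 bp.

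Olfr promoters held few reads in all libraries, and the size of the gap to other promoters differed by variant and cell type. The mean Olfr promoter held 0.447 and 0.322 p.p.m. for HA-H3.3 at 3 and 6 hours, 28.3% and 13.5% of the mean of 19985 promoters that belong to neither Olfr nor vomeronasal receptor (Vmn) genes. For anti-MacroH2A2 it held 0.504 p.p.m. in ES cells (42.2%) and 0.460 in MEFs (66.5%). HA-Macro ES cells gave 0.547 without Dox (78.1%) and 0.403, 0.445 and 0.473 at 3, 6 and 12 hours (35.8%, 48.6% and 62.2%), and in HA-Macro MEFs 0.340, 0.341 and 0.328 (47.3%, 48.4% and 52.0%). Olfr promoters came closest to other promoters without Dox and stood furthest below them for HA-H3.3 at 6 hours. These percentages rest on distinct intervals. When every interval was counted, the log2 ratio of the mean Olfr promoter to the mean of the other promoters went from −0.36 to −1.81 without Dox, from −0.69 to −1.87 in HA-Macro ES cells at 12 hours and from −0.94 to −1.73 in HA-Macro MEFs at 12 hours.

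Most of this gap was shared by other promoters with few CpGs. The 3585 non-Olfr promoters with at most 12 CpGs held 27.5% and 17.4% of the mean of other promoters for HA-H3.3, 38.7% and 61.2% for anti-MacroH2A2 in ES cells and MEFs, and 73.0% without Dox. For HA-Macro at 12 hours they held 67.3% in ES cells and 73.5% in MEFs, where Olfr promoters held 62.2% and 52.0%. Olfr promoters thus lay somewhat below the CpG-poor promoters, which include Vmn promoters, in HA-Macro ES cells and further below them in HA-Macro MEFs. With anti-MacroH2A2 they lay above the set. Without Vmn promoters this held at 0 to 4 CpGs (0.450 against 0.354 p.p.m. in ES cells, 0.403 against 0.344 in MEFs). It also held at 5 to 9 CpGs (0.461 against 0.445 and 0.444 against 0.409). At 10 to 14 CpGs Olfr promoters lay below (0.526 against 0.657 and 0.518 against 0.571). Whether these gaps differ was not tested. The 130 Olfr promoters outside clusters held 78.7% in HA-Macro MEFs at 12 hours and 80.6% in ES cells at 12 hours, and their median CpG number was 10.0 against 5.5 in clusters.

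Few Olfr promoters were among the highest promoters of any library. Above the 90th percentile of all promoters stood 0 of 1106 for HA-H3.3 at 3 and at 6 hours (background 8.67% and 9.80%), 3 and 10 for anti-MacroH2A2 in ES cells and MEFs (8.92% and 9.91%), and 35 without Dox (8.62%). For HA-Macro the counts were 1, 3 and 10 in ES cells (8.89%, 8.85% and 9.53%) and 7, 8 and 9 in MEFs (9.95%, 9.37% and 9.78%). The median Olfr promoter held 3 to 8 midpoints in the 11 libraries, and 91 Olfr promoters held 0 for HA-H3.3 at 3 hours, so a single promoter is seldom measured well.

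Between libraries, Olfr promoters moved less than promoters as a whole or in the opposite direction in each pair described here but that of HA-Macro MEFs and ES cells at 12 hours. For anti-MacroH2A2, 641 Olfr promoters had enough midpoints to be compared, of which 78 were at least 2-fold higher in MEFs than in ES cells (background 3.80%) and 88 at least 2-fold lower (background 41.1%), and the summed log2 ratio was −0.13 against −0.76 for all promoters. From 3 to 12 hours in HA-Macro ES cells 165 of 937 rose by 2-fold (background 6.20%) and 41 fell (29.3%), with sums of 0.23 for Olfr and −0.54 for all promoters. From 6 to 12 hours 121 of 961 rose (4.24%) and 67 fell (11.9%), with sums of 0.09 and −0.25. In HA-Macro MEFs 83 of 499 rose (7.51%) and 56 fell (12.6%), with sums of −0.05 and −0.18. For HA-H3.3, 13 of 156 rose by 2-fold from 3 to 6 hours (24.7%) and 49 fell (2.91%), with sums of −0.47 and 0.58. Against the library without Dox, 40 of 870 were 2-fold higher in HA-Macro ES cells at 3 hours (34.6%) and 226 lower (5.33%), with sums of −0.44 and 0.64, and at 12 hours 94 of 953 were higher (15.0%) and 161 lower (8.05%), with sums of −0.21 and 0.10. In MEFs against ES cells at 12 hours of HA-Macro, 36 of 912 were higher (7.06%) and 280 lower (26.7%), and the sum fell further for Olfr promoters (−0.53) than for all promoters (−0.28). Promoters with at most 12 CpGs moved much like Olfr promoters in some of these pairs, with sums of −0.13 for anti-MacroH2A2 in MEFs against ES cells, and 0.15 and 0.06 from 3 to 12 and from 6 to 12 hours in HA-Macro ES cells. They moved less or the other way in the rest, with 0.03 from 3 to 12 hours in HA-Macro MEFs, −0.06 for HA-H3.3, −0.15 and 0.00 at 3 and 12 hours against no Dox, and −0.14 in MEFs against ES cells at 12 hours. Passing the minimum depends on the midpoints themselves, so these counts describe the promoters that passed. In the 139 genes whose TSS lies 100 bp or more upstream of the start codon, the HA-Macro ES sum from 3 to 12 hours was −0.01 in place of 0.23, and from 6 to 12 hours −0.04 in place of 0.09. The rise over all Olfr promoters was thus not seen where the window lies largely before the coding exon.

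Averaged around the TSS, all members together had a small peak, which was lower than that of other promoters in most libraries. The 600 bp on either side stood above the level from 4 to 2 kb upstream by log2 0.11 at both times of HA-H3.3, 0.33 and 0.29 for anti-MacroH2A2 in ES cells and MEFs, and 0.08 without Dox. For HA-Macro the values were 0.16, 0.22 and 0.37 in ES cells and 0.17, 0.24 and 0.25 in MEFs at 3, 6 and 12 hours. The 19273 other promoters outside discarded tiles gave 1.30 and 1.59 for HA-H3.3, 1.02 and 0.39 for anti-MacroH2A2 and 0.35 without Dox. For HA-Macro they gave 0.82, 0.44 and 0.18 in ES cells and 0.27, 0.22 and 0.07 in MEFs. The Olfr peak was thus the higher one at 12 hours in both cell types and at 6 hours in MEFs. In all 6 induced HA-Macro libraries the 200 bp bin with the highest value had its center at +500 bp. The 139 genes whose TSS lies 100 bp or more upstream of the start codon differed, with −0.06, −0.16 and −0.18 in HA-Macro MEFs at 3, 6 and 12 hours (95% interval at 12 hours −0.31 to −0.05) and 0.13, 0.07 and 0.12 in ES cells. There HA-H3.3 gave 0.29 and 0.25, anti-MacroH2A2 0.22 and 0.20, and the library without Dox 0.26.

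The promoters with the most reads were rich in CpGs by the standard of the family. Olfr94 (chr17:37333653-37334956, minus strand, 35 CpGs), whose upstream sequence is printed above, held 10 and 33 midpoints for HA-H3.3 at 3 and 6 hours, 13 and 20 for anti-MacroH2A2 in ES cells and MEFs and 1 without Dox. HA-Macro gave 24, 15 and 19 midpoints there in ES cells and 13, 12 and 18 in MEFs. Its TSS lies 4119 bp from that of Ubd, which encodes a ubiquitin-like protein. Olfr222, on chromosome 11 outside the clusters (30 CpGs), held 9 and 32 for HA-H3.3, 19 and 17 for anti-MacroH2A2, 12 without Dox, 20, 22 and 35 for HA-Macro ES cells and 19, 15 and 41 for MEFs. Both genes had more HA-H3.3 at 6 than at 3 hours, which is opposite to the sum over Olfr promoters, and they were picked as the highest values at 6 hours.

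Olfr1344 (chr7:6392547-6393607, plus strand, 29 CpGs), also printed above, was the highest with anti-MacroH2A2, with 39 midpoints in ES cells and 39 in MEFs from libraries of different depth. It held 10 and 9 for HA-H3.3 at 3 and 6 hours, 19 without Dox, 34, 29 and 24 for HA-Macro ES cells and 8, 6 and 13 for MEFs. Its neighbor Olfr1349 (35 CpGs) was the next, with 24 and 27 for anti-MacroH2A2, 11 and 9 for HA-H3.3, 3 without Dox, 13, 24 and 18 for HA-Macro ES cells and 7, 3 and 19 for MEFs. At both genes HA-H3.3 did not rise with the deeper 6 hour library. Olfr718-ps1, annotated as protein-coding despite its name, held 9 and 19 midpoints for HA-H3.3 and 17 and 21 for anti-MacroH2A2. Olfr523, in the 19-gene cluster on chromosome 7, held 20 and 15 for anti-MacroH2A2, and Olfr225, on chromosome 11, held 16 and 27. Olfr1373 was high in HA-Macro ES cells at 3 hours with 22 midpoints, against 11 and 13 at 6 and 12 hours, 6 without Dox, and 0 and 2 for anti-MacroH2A2 in ES cells and MEFs, and its 9 CpGs are few among these genes.

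Widely studied receptors were at ordinary levels for the family, and 9 of 10 listed were found. Olfr2, a receptor for octanal, held 2 and 0 midpoints for HA-H3.3 at 3 and 6 hours, 3 and 8 for anti-MacroH2A2 in ES cells and MEFs, 7 without Dox, 6, 4 and 3 for HA-Macro ES cells and 4, 2 and 4 for MEFs. Olfr691, a receptor for short-chain fatty acids, held 2 and 0, 3 and 9, 3, 6, 6 and 12, and 5, 4 and 9 in the same order. A count of 0 allows up to 3 midpoints (one-sided, counting error only), so HA-H3.3 at 6 hours was not detectable at these 2 promoters rather than absent. Olfr545, with 21 CpGs, had the most HA-Macro reads of the 9, with 12, 21 and 20 in ES cells and 9, 10 and 16 in MEFs, against 8 without Dox and 1 and 3 for HA-H3.3. Olfr151, a receptor for acetophenone, held 3 and 2 for HA-H3.3, 4 and 12 for anti-MacroH2A2, 6 without Dox, 6, 9 and 12 for HA-Macro ES cells and 5, 1 and 13 for MEFs. Olfr73, a receptor for eugenol, held between 2 and 11 midpoints in the 11 libraries, Olfr16, a receptor for lyral, between 1 and 10, and Olfr78, which is also expressed outside the nose, between 1 and 11. Olfr17 ranged from 1 to 12 and Olfr1507 from 1 to 9.

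Genes that act in olfactory signaling and receptor choice exceeded the median receptor promoter about as often as promoters in general. All 23 listed genes were found. Above the median Olfr promoter lay 18 and 22 of them for HA-H3.3 at 3 and 6 hours (background over all promoters 76.1% and 83.0%), 18 and 17 for anti-MacroH2A2 in ES cells and MEFs (73.9% and 65.9%) and 16 without Dox (58.5%). For HA-Macro the counts were 17, 16 and 17 in ES cells (84.0%, 79.5% and 70.0%) and 20, 20 and 16 in MEFs (74.7%, 71.8% and 68.3%). At least 1 listed gene held 0 midpoints in each of the 4 libraries of 400 bp intervals, and 11 to 16 genes lay above the median of all promoters. Their median was 1.40 and 1.97 p.p.m. for HA-H3.3 at 3 and 6 hours, where the median Olfr promoter held 0.465 and 0.282. For anti-MacroH2A2 it was 1.29 in ES cells and 0.877 in MEFs, where Olfr held 0.470 and 0.405, and without Dox 0.677 where Olfr held 0.508. Gng13, a G protein γ subunit of olfactory and taste cells, was the highest with 26 and 60 HA-H3.3 midpoints, and its promoter lies in a tile that was left out of the tile comparisons for its high signal without Dox, although the promoter itself held 9 midpoints there. Of 19 genes compared for anti-MacroH2A2, 0 were 2-fold higher in MEFs (background 3.80%) and 7 were 2-fold lower (background 41.1%), among them Adcy3, the adenylyl cyclase of odorant signaling, and Kdm1a, the demethylase Lsd1. From 3 to 12 hours in HA-Macro ES cells, 4 of 21 rose by 2-fold (background 6.20%), namely Cnga4, a subunit of the olfactory cation channel, the receptor transporters Rtp1 and Rtp2, and the adhesion gene Ncam2, and 3 fell (background 29.3%), namely Kdm1a, Lbr and Ric8b. From 6 to 12 hours 2 of 21 rose (Cnga4 and Rtp1, background 4.24%) and 3 fell (Kdm1a, Ric8b and Ano2, background 11.9%). Rtp2, Ncam2 and Lbr were thus called only in ratios to 3 hours. From 3 to 6 hours 1 of 20 rose (Ncam2, background 4.92%) and 0 fell (background 13.9%). From 3 to 6 hours of HA-H3.3, 4 of 20 rose (Cnga4, Ebf1, Ncam2 and Ldb1, background 24.7%) and 1 fell (the channel gene Ano2, background 2.91%), which for the genes that rose is about the background share.

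Vomeronasal receptor genes, which serve pheromone detection and also stand in arrays, were counted by the same rule for comparison. Their 12 clusters (10.4 Mb, 327 genes in all) stood at log2 −1.05 and −1.47 to the mean for HA-H3.3, −0.98 and −1.13 for anti-MacroH2A2 in ES cells and MEFs, −0.11 without Dox, −0.53, −0.52 and −0.53 for HA-Macro ES cells and −0.84, −0.87 and −0.99 for MEFs. Each of these values was below that of the Olfr clusters in the same library. Against flanks the order depended on the library. Vmn clusters gave −0.78 and −1.37 for HA-H3.3, −0.62 and −0.52 for anti-MacroH2A2 and −0.07 without Dox, all below the Olfr values. HA-Macro gave −0.52, −0.47 and −0.46 in ES cells and −0.41, −0.46 and −0.54 in MEFs, all above the Olfr values. Differences were small for anti-MacroH2A2 in MEFs and HA-Macro ES cells at 6 and 12 hours. A share of Vmn bases was thinly covered in the libraries of 400 bp intervals, since 22.1% to 23.2% of their 10 kb bins held under 10% of the median bin there. In Olfr clusters such bins made up 1.02% to 1.46% in these 4 libraries, about as in the flanks (1.06% to 1.48%), and 0 of 2462 in the 7 others. Leaving such bins out moved the log2 ratio of Olfr clusters to flanks by at most 0.0243. The Vmn exons showed a smaller excess for HA-Macro at 12 hours than those of Olfr genes, with 0.36 in ES cells (0.75 for Olfr) and 0.30 in MEFs (0.63). Several changes between libraries were shared by Vmn clusters. From 3 to 6 hours HA-H3.3 gave −0.42 over them, with 12 of 12 below 0, and 0.17 over their flanks. All 12 also fell below 0 in HA-Macro ES cells at 3 hours against no Dox (−0.41) and in HA-Macro MEFs from 3 to 12 hours (−0.14). The same held for HA-Macro MEFs against ES cells at 12 hours (−0.46).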

How the data were processed

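Deposited files give a start and an end for every mapped read, and no count, strand or signal value. Per the labels and the methods, the authors merged reads of identical sequence but kept the number of each, which their promoter values sum. They aligned the reads against mm9 with Bowtie 1.0 (up to 1 mismatch, a random choice among several locations). Each was lengthened to 150 bp, although 4 of the 11 libraries hold 400 bp intervals. The unit of the deposited values is therefore other than a count. Here, distinct intervals on chromosomes 1 to 19, X and Y (6448310 to 19869559 per library) were reduced to their midpoints and expressed as parts per library total (p.p.m.).

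Groups were taken from the sample titles. Promoters are 600 bp on either side of the TSS, clusters hold 10 or more genes under 200 kb apart, and flanks are 500 kb on each side. Of 26558 tiles of 100 kb, 265 with the most no-Dox signal (the top 1%) were discarded, of which 0 were Olfr tiles. Promoters needed 10 midpoints over both libraries and tiles 20 to be compared. Sums carry exact Poisson intervals and ratios exact binomial intervals at 95%. The ratio intervals, tested on simulated data, held the true value in 94.8% or more of 460 cases per ratio. Python 3.11.15, NumPy 2.4.6, pandas 2.3.3 and SciPy 1.17.1 were used. Named genes are the 3 highest Olfr promoters in each of 4 libraries, 10 widely studied receptors (Olfr160 was not found), the other genes in clusters with the most reads and a list for olfactory signaling, and clusters are named by size or by extreme ratio. The members and lists were chosen with earlier results of these data known.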

Additional observations from a re-analysis of the deposited data

Results flagged for a closer look

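Counted from the 3 hour libraries, Olfr clusters moved in opposite directions in HA-Macro ES cells and MEFs. From 3 to 6 hours of Dox the log2 ratio over the 23 clusters was 0.0605 in ES cells and −0.0275 in MEFs, and from 3 to 12 hours it was 0.0369 in ES cells and −0.114 in MEFs. Both ES values use the 3 hour library, whose share of chromosome Y differs from the later ones. Without it the difference in direction was lost, since from 6 to 12 hours the clusters gave −0.0236 in ES cells and −0.0865 in MEFs. Olfr promoters from 6 to 12 hours gave 0.0889 in ES cells and −0.0567 in MEFs. Each condition has 1 library, and these differences between cell types were not tested.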

How the results depend on the processing

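No replicate could be left out, because each condition has 1 library. The only pairing is by time, between HA-Macro ES cells and MEFs, and its 3 pairs cannot give an exact permutation p below 0.25. Of 86 alternative counts and shares, 84 stayed within 1.5 times the value reported. The share of clusters below 0 between HA-Macro ES libraries went from 34.8% (12 against 3 hours) to 65.2% with 6 hours in place of 3 hours, and the summed log2 ratio then changed sign, from 0.0369 to −0.0236. Against CpG-poor promoters in place of all promoters, Olfr promoters lay below the comparison set in 9 of 12 pairs of libraries in place of 4. Of 581 alternatives for single values, 346 moved within their counting interval, 229 moved beyond it and 6 changed sign. Besides the sum above, these were the density of clusters without Dox relative to the mean, from 0.04 to −0.0312 with every interval counted, −0.0045 with lengths free of N and −0.0020 over 10 kb bins without the thin ones (−0.0051 over all 10 kb bins, so the sign does not turn on the thin bins), and, for Olfr genes with a TSS 100 bp or more upstream of the start codon, the promoter sums in HA-Macro ES cells at 12 hours, −0.0093 against 3 hours and −0.0398 against 6 hours. The shift with the largest size came from counting every interval at promoters (1.46 on the log2 scale), where repeats raised the mean of other promoters more than that of Olfr promoters. The CpG-poor set, the genes with an upstream TSS, the coding exon settings, the thin bins, the tile membership, the anti-HA libraries at 3 and 6 hours and the Vmn setting were chosen after seeing the data. Single promoters are limited by depth, with medians of 3 to 8 midpoints.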
